A study of Mus musculus with 16 samples.

Results

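The genes described are 38 genes of homologous recombination and of the Fanconi anemia pathway, measured in CD8+ T cells after targeting of Tardbp. They were taken by their GENCODE M21 symbol from 55536 annotated genes, and all 38 passed the filter on low counts. Homologous recombination repairs a broken chromosome by copying the intact sister chromatid, and therefore works in cells that replicate their DNA. The ends of the break are first found and cut back, the single strand then invades the sister with the help of Brca2 and of accessory factors, and the joined molecules are finally resolved. Fanconi proteins recognise and unhook crosslinks between the strands and hand the resulting break to the same machinery. Activated CD8+ T cells divide quickly, and their repair genes are transcribed together with those of the cell cycle.

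Both groups were made from CD8+ T cells of OT-I Tg C57BL/6J mice, whose transgenic T cell receptor recognises the ovalbumin peptide SIINFEKL, on a Rag1-/- or Rag2-/- background according to the methods, which use mice of both sexes and of no single age. Cells were electroporated with Cas9 and either a scrambled guide RNA (Control gRNA, 8 libraries) or a guide against Tardbp (Tardbp gRNA, 8 libraries), and transferred into C57BL/6J recipients. All recipients used here received the antigen with stimulating antibodies against OX40 and 4-1BB, a pair of costimulatory receptors, and the labels place collection from spleen and lymph nodes at day 4, later than the methods do. The methods describe sorting for CD8+ T cells by the CD45 markers of the transferred cells, which differ from those of the recipients. Edited cells were not selected, so a library may hold cells in which Tardbp was left intact. By immunoblot of pooled cells, the study reports that the Tardbp protein was not made after the Tardbp guide. According to the text of the study, the cells came from individual recipient mice and were stimulated after purification, a step that the labels do not mention. The question was whether the repair genes differ between cells with and without the targeting of Tardbp, which encodes the RNA-binding protein TDP-43.

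Libraries held between 56016533 and 94801105 estimated counts in annotated genes. Tardbp itself had a mean of 192 ± 13.3 CPM (counts per 1000000, with the TMM factor of each library) with the Control gRNA and of 135 ± 11.3 with the Tardbp gRNA (SD, n = 8 each), without overlap. Of the 12 genes of CD8 T cell identity 11 rose and none fell, and their summed level was 9706 to 11445 CPM in the Control libraries, against 12598 to 15551 in the others. Summed red cell precursor markers (8 genes, 4 of 5 tested higher) were 0.442 to 17.9 CPM with the Control gRNA, against 9.10 to 182 with the Tardbp gRNA. B cell markers (9 genes, 2 of 7 tested higher) summed to 394 to 472 and 561 to 727 CPM, nearly all of it Ighm, with the defining factor Pax5 at 0.00324 CPM in Control and at 0 in Tardbp libraries. CD4 T cell markers (4 genes) had a sum of at most 20.7 CPM, with Cd4 at a mean of 0.230 and 0.220, and none was called. Myeloid markers (10 genes) ranged from 24.8 to 44.9 and from 31.2 to 90.4 CPM, NK cell markers (5 genes) from 12.6 to 63.4 and from 37.2 to 101, and dendritic cell markers (6 genes) from 18.9 to 36.9 and from 28.0 to 40.3. The part of these markers in the results below was not tested. The deposited RNA concentration, which carries no unit, was 34.9 to 197.1 for Control and 10.1 to 24 for Tardbp libraries, so that it cannot be told apart from the group. In bulk libraries, a smaller share of cells with a transcript and less of it in each cell cannot be told apart either.

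Most repair genes were lower in Tardbp gRNA. Of the 38 members, 33 fell and 2 rose at an adjusted p under 0.05 (edgeR's quasi-likelihood test, Benjamini-Hochberg over 16650 genes), and 3 were not called. Among all genes tested, 46.7% were called, 23.3% lower and 23.5% higher. The median log2 fold change of the members was -0.46, beside 0.05 for all genes tested. The groups did not overlap for 25 members, and for 16.9% of all genes tested. With library totals as the only scaling, the calls over all genes became 4881 higher and 3135 lower, in place of 3906 and 3877, and 29 members fell and 2 rose. The summed CPM of the members was 2117 to 2463 in the Control libraries, against 1422 to 1708 in the Tardbp libraries. Control library 3 had the highest Control value for 22 of the 38 members, and Tardbp library 4 the lowest Tardbp value for 18. Leaving out any 1 of the 16 libraries left between 33 and 36 members called.

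**Figure D1:**
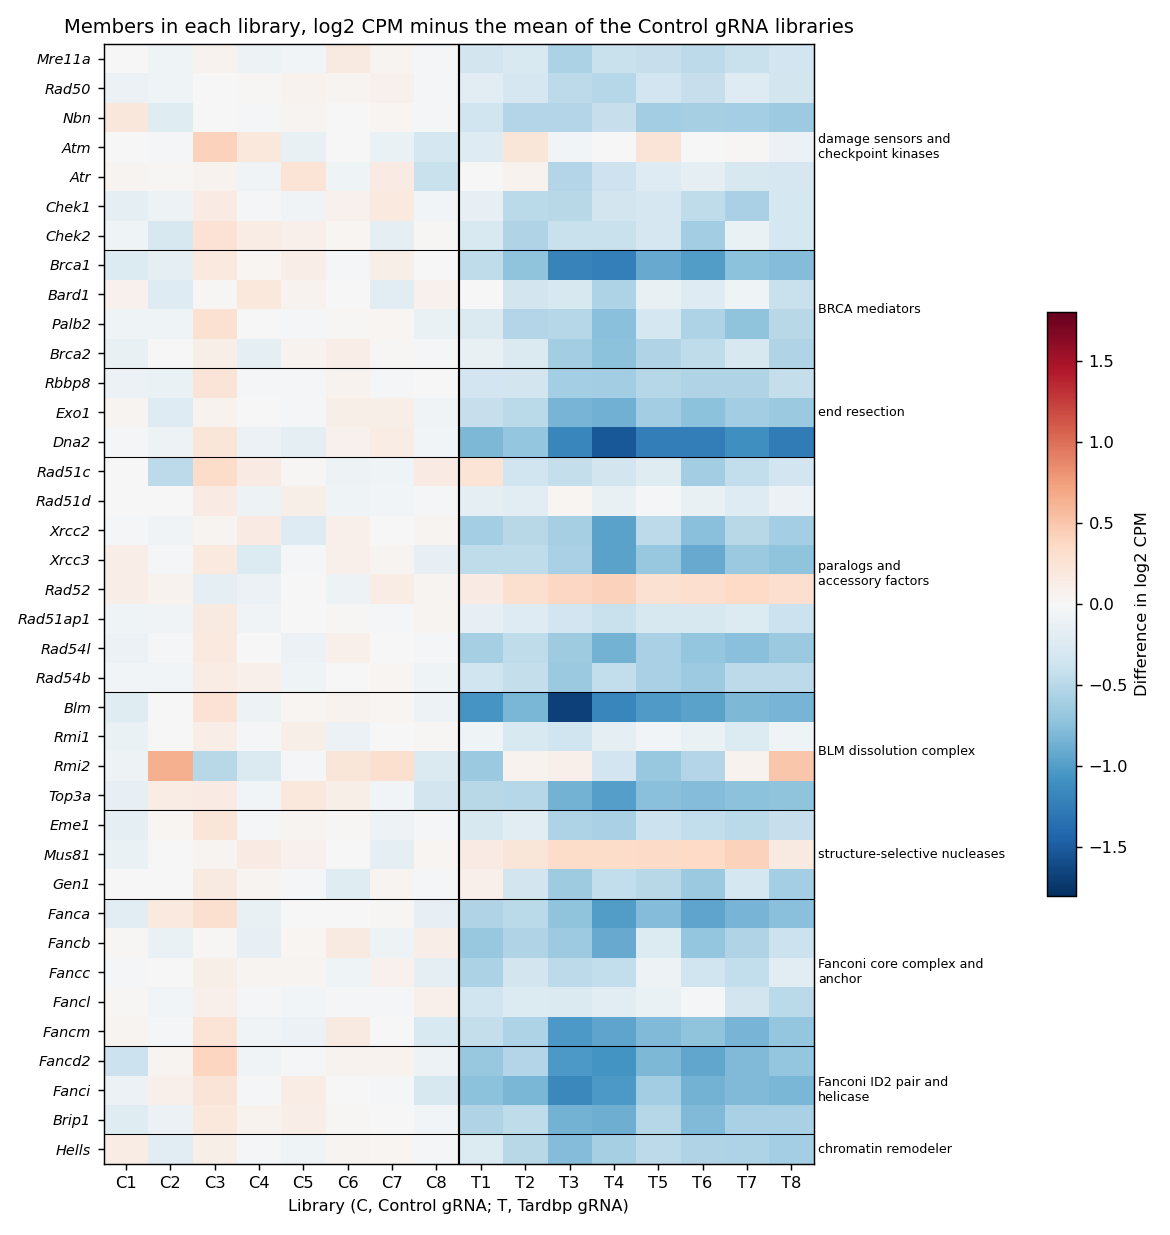
Difference in log2 CPM from the mean of the Control gRNA libraries for the 38 members (rows, by role) in the 8 Control gRNA (C) and 8 Tardbp gRNA (T) libraries. Blue fields fill most rows of the 8 Tardbp libraries, whereas Rad52 and Mus81 are red there and Atm and Rmi2 are mixed.

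Damage sensors and checkpoint kinases come first in the response to a break. The MRN complex, which binds DNA ends, fell in all 3 subunits, with a log2 fold change of -0.54 for Nbn, -0.40 for Mre11a and -0.35 for Rad50, each without overlap between the groups. The checkpoint kinases Chek1 and Chek2, which stop the cell cycle, fell with log2 fold changes of -0.39 and -0.38, and their groups overlapped.

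The gene counts of the apical kinases differed less or not detectably, and no difference between genes was tested. Atm (chr9:53439149-53536740, minus strand), the kinase recruited to double-strand breaks by MRN, had a lowest, median and highest value of 19.3, 23.7 and 32.1 CPM in Control gRNA and of 20.5, 24 and 28.2 in Tardbp gRNA. The 2 groups overlapped over nearly their whole range, with means of 24.4 CPM in both, a log2 fold change of 0.00 (SE 0.092) and an adjusted p of 0.998. Atr (chr9:95857597-95951781, plus strand), the kinase that responds to single-stranded DNA at stalled forks, had 19.0, 25.7 and 29.8 CPM in Control gRNA and 17.4, 20.9 and 26.1 in Tardbp gRNA. Its groups overlapped too, and the log2 fold change of -0.23 (SE 0.092) had an adjusted p of 0.049, just under the threshold. The call of Atr was lost without Control library 5 (-0.19, adjusted p 0.104). It was also lost without Control library 1, 2, 3, 6 or 7, or Tardbp library 3, 4, 7 or 8, each left out alone. The main coding transcript Atr-201 was called lower, from 23.1 ± 3.56 to 17.5 ± 2.70 CPM (SD, n = 8 each). Its log2 fold change was -0.40 (edgeR's quasi-likelihood test, adjusted p 0.0309).

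Of the BRCA mediators, all 4 fell. Brca1 (chr11:101488764-101551955, minus strand), which promotes resection and brings in Palb2, had a lowest, median and highest value of 49.8, 59.6 and 66.5 CPM in Control gRNA. In Tardbp gRNA these were 25.1, 32.7 and 42.7 CPM. No Tardbp library reached the lowest Control library, and the mean was 54.8% of Control (log2 fold change -0.87, SE 0.098, adjusted p 1.17e-06). Its partner Bard1, with which it forms a ubiquitin ligase, was lower by far less (log2 fold change -0.25, adjusted p 0.019), and the groups overlapped. Palb2, the bridge between Brca1 and Brca2, fell without overlap from 31.6 ± 2.82 to 22.1 ± 2.67 CPM (SD, n = 8 each; log2 fold change -0.51). Brca2 (chr5:150522630-150570329, plus strand), a mediator of strand invasion, had 36.6, 41.2 and 44.4 CPM in Control gRNA and 24.5, 29.0 and 37.2 in Tardbp gRNA. Only the top of the Tardbp range reached into the Control range, and the log2 fold change was -0.44 (SE 0.079, adjusted p 0.000178).

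End resection genes fell in all 3 cases without overlap. Dna2 (chr10:62947026-62974185, plus strand), a nuclease and helicase of long-range resection and of flap removal in replication, had the lowest fold change of all members. Its values were 75.3, 82.2 and 97.7 CPM (lowest, median, highest) in Control gRNA and 29.1, 36.6 and 51.9 in Tardbp gRNA. The groups stood well apart, and the Tardbp mean was 46.2% of Control (log2 fold change -1.11, SE 0.098, adjusted p 1.14e-07). The exonuclease Exo1, which shares long-range resection with Dna2, had a log2 fold change of -0.66, and Rbbp8, which encodes CtIP and starts resection, one of -0.49.

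Among the paralogs and accessory factors of strand invasion, 6 of 8 fell and 1 rose. The paralogs Xrcc3 and Xrcc2 fell without overlap (log2 fold changes of -0.68 and -0.62). Rad51c fell from 13.5 ± 2.1 to 10.9 ± 2.14 CPM (SD, n = 8 each; -0.31, adjusted p 0.040), and its call was lost on leaving out any 1 of 5 libraries, Control library 3 or 5 (adjusted p 0.0858 and 0.0554) or Tardbp library 2, 3 or 6 (0.0619, 0.0687 and 0.0547). Rad51d (chr11:82876434-82890614, minus strand) had 33.8, 35.6 and 39.8 CPM in Control gRNA and 30.5, 32.6 and 37.0 in Tardbp gRNA. With overlapping groups, its log2 fold change of -0.12 (SE 0.052) missed the threshold (adjusted p 0.0604), which was passed on leaving out any 1 of 9 libraries. Rad54l (chr4:116094264-116123690, minus strand), a motor protein of the strand invasion step, had 156, 167 and 190 CPM with the Control gRNA, against 93.6, 107 and 123 with the Tardbp gRNA. Its groups were well separated (log2 fold change -0.65, SE 0.054, adjusted p 6.13e-08). The related Rad54b fell by 0.51 on the log2 scale without overlap, and the accessory protein Rad51ap1 fell by 0.29.

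Rad52 (chr6:119902698-119922828, plus strand), an annealing protein that can join single strands, was the highest member. It had 11.5, 13.3 and 14.3 CPM in Control gRNA and 14.4, 16.1 and 17.3 in Tardbp gRNA. The groups lay close together without overlap, and the log2 fold change was 0.30 (SE 0.060, adjusted p 0.000417).

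The complex that dissolves double Holliday junctions consists of the helicase Blm, the topoisomerase Top3a and the scaffold proteins Rmi1 and Rmi2, and its subunits moved unequally. Blm (chr7:80454733-80535119, minus strand) had 54.2, 63.7 and 75.2 CPM in Control gRNA and 19.5, 31.7 and 36.0 in Tardbp gRNA. Its groups were far apart, with a Tardbp mean at 49.0% of Control (log2 fold change -1.03, SE 0.103, adjusted p 3.32e-07). Top3a fell without overlap (-0.73), and Rmi1 fell by 0.17 on the log2 scale with overlap. Rmi2, the most variable member, had a mean of 16.1 ± 4.27 CPM against 14.3 ± 4.31 with the Tardbp gRNA (SD, n = 8 each) and was not called (log2 fold change -0.17, SE 0.181, adjusted p 0.454).

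The structure-selective nucleases cut the junctions that dissolution leaves. Mus81 and Eme1 encode the 2 subunits of 1 enzyme and moved in opposite directions. Mus81 (chr19:5482345-5488402, minus strand), the catalytic subunit, had 34.4, 39.5 and 42.9 CPM in Control gRNA and 43.1, 48.8 and 51.9 in Tardbp gRNA. All Tardbp values lay above all Control values, the closest by a small margin (log2 fold change 0.29, SE 0.055, adjusted p 0.000299). Eme1 fell without overlap from 71.6 ± 5.83 to 53.6 ± 5.05 CPM (SD, n = 8 each; -0.42). The libraries do not keep the strand, and exons of Eme1 overlap those of 2 more abundant genes on the opposite strand. These are Lrrc59 (log2 fold change -0.55) and Mrpl27 (0.00), and their part in the Eme1 count was not tested. Gen1, a nuclease that works alone, fell with overlap (-0.41), and its highest Tardbp value, 29.7 CPM in library 1, lay inside the Control range.

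The Fanconi genes among the members fell throughout. In the core complex that ubiquitinates the ID2 pair, Fanca (chr8:123268300-123318576, minus strand) had 51.8, 58.9 and 72.5 CPM in Control gRNA and 29.4, 34.8 and 42.4 in Tardbp gRNA. No library overlapped, and the log2 fold change was -0.76 (SE 0.083, adjusted p 9.06e-07). Fancm, the DNA translocase that anchors the complex, fell by a similar amount (-0.75), followed by Fancb (-0.57), both without overlap. Fancc (-0.36) and the ubiquitin ligase subunit Fancl (-0.25) fell less, and their groups overlapped.

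The ID2 pair is the substrate that clamps onto DNA at a crosslink. Fancd2 (chr6:113531682-113597017, plus strand) had 56.9, 74.6 and 96.6 CPM in Control gRNA and 35.0, 42.4 and 51.3 in Tardbp gRNA. Its partner Fanci (chr7:79391929-79450264, plus strand) had 74.7, 90.4 and 108 CPM in Control gRNA and 40.8, 51.6 and 58.9 in Tardbp gRNA. Both fell without overlap and by nearly the same amount, Fancd2 by 0.82 (SE 0.094, adjusted p 1.33e-06) and Fanci by 0.86 (SE 0.077, adjusted p 1.42e-07) on the log2 scale. The helicase Brip1 (-0.64) and Hells (-0.53), a chromatin remodeler needed for DNA methylation and for access to breaks, also fell without overlap.

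**Figure D2:**
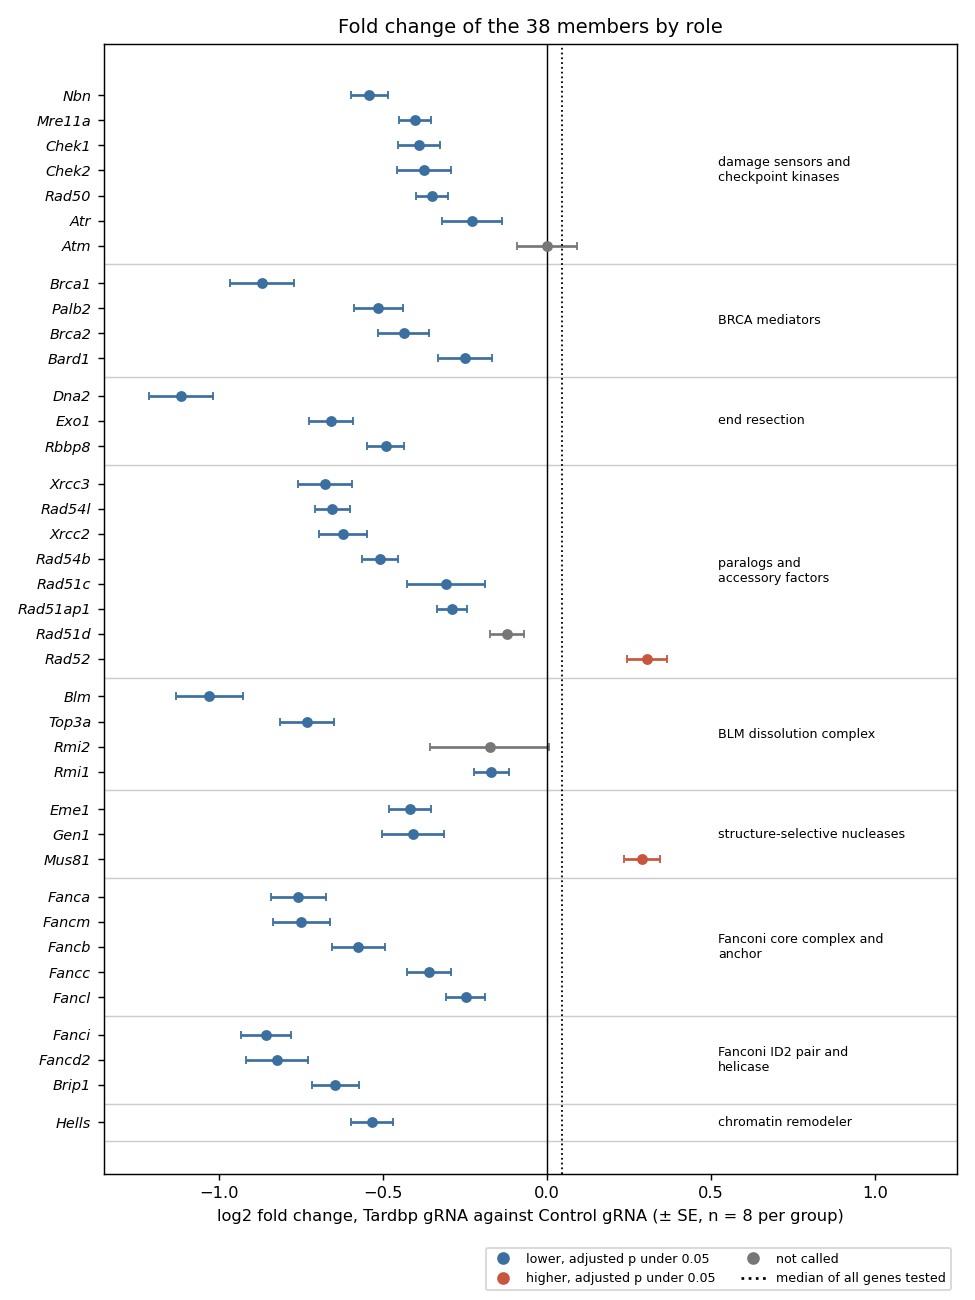
Log2 fold change of Tardbp gRNA against Control gRNA for each of the 38 members (points, by role; bars, SE; n = 8 libraries per group). Dna2 at -1.11 and Blm at -1.03 are lowest, Rad52 at 0.30 and Mus81 at 0.29 are highest, and the dotted line marks the median of all genes tested, 0.05.

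**Figure D3:**
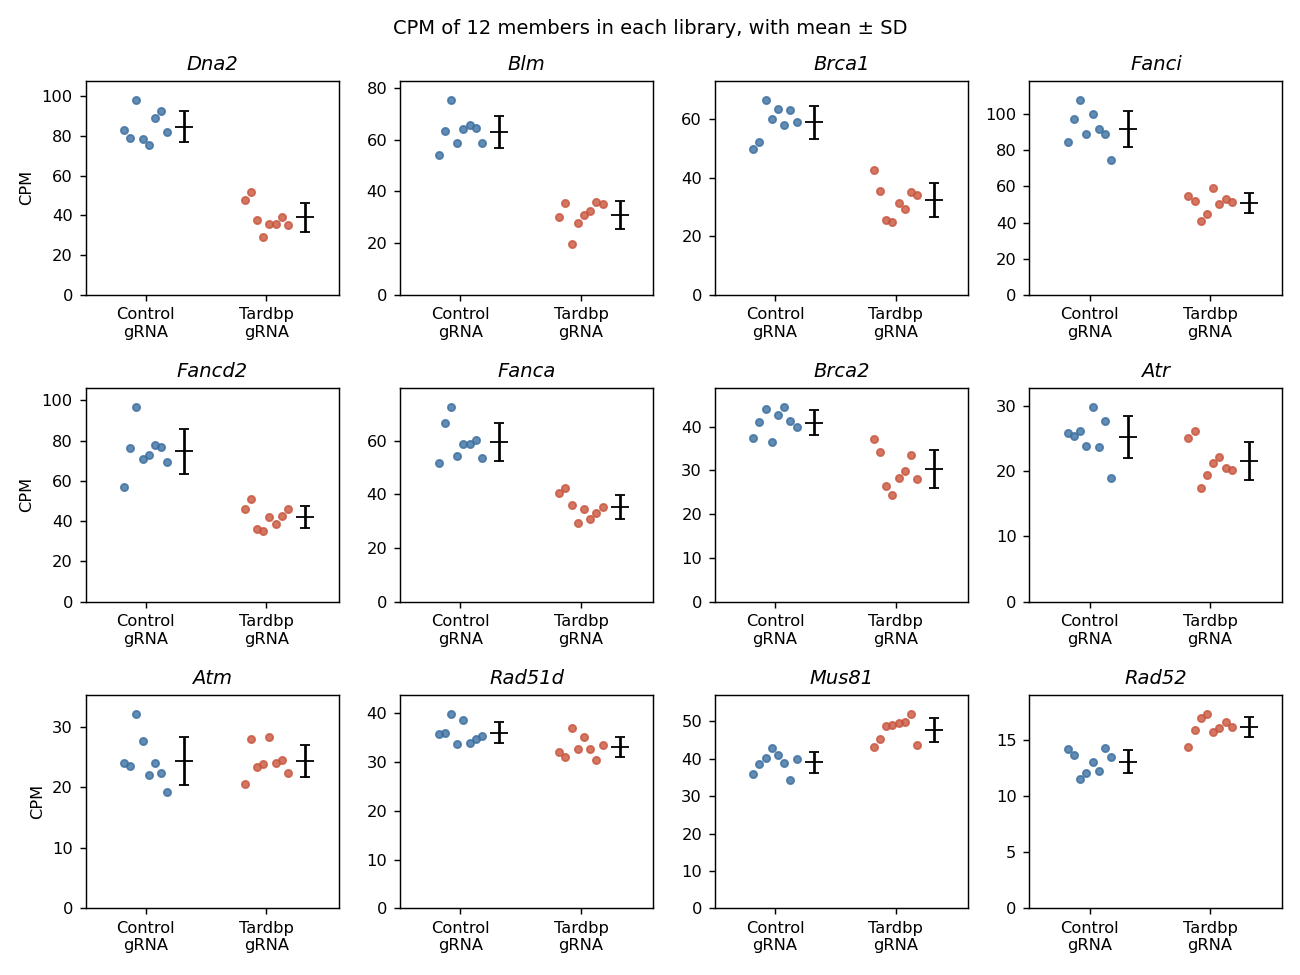
CPM of 12 members in each library (points), with mean and SD (bars), for Control gRNA and Tardbp gRNA. The groups stand apart for Dna2, Blm, Brca1, Fanci, Fancd2 and Fanca, overlap for Brca2, Atr, Atm and Rad51d, and are reversed in order for Mus81 and Rad52.

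The calls were next examined against the RNA concentration and the library numbers. When the RNA concentration (log2) entered the model, 27 members fell and 1 rose, where 16.2% of all genes were called (10.1% lower, 6.07% higher). The median log2 fold change of the members was then -0.57. As the concentrations of the groups did not overlap, this fit cannot separate the concentration from the group. Of the members no longer called, Rad51c (-0.59), Gen1 (-0.52), Fancc (-0.38), Bard1 (-0.31) and Rmi1 (-0.27) had a fold change at least as far from 0 as before, and Atr (-0.12) and Mus81 (0.16) one nearer to 0. Libraries numbered 1 to 3 stood apart from those numbered 4 to 8 on the second principal component in either group, a division that the labels do not give. Within numbers 4 to 8 alone 30 members fell and 2 rose (median -0.52), where 40.8% of all genes were called (21.1% lower, 19.7% higher). Within numbers 1 to 3 alone, with 3 libraries per group, 16 members fell and none rose (median -0.48), where 10.1% of all genes were called (6.76% lower, 3.3% higher). With the division as a covariate, 33 fell and 2 rose, where 7930 of 16650 genes were called (3930 lower, 4000 higher). In all 26 alternative fits the 35 called members kept their sign, and 15 of them kept their call in every one. Most of these fits only left out 1 library, and the same counts over all genes were not made. The deposited letter M or F of a library did not modify the difference detectably for any member (interaction term, edgeR, 0 genes called and 0 members at an unadjusted p under 0.05; DESeq2, 1 gene called and 0 members). These letters did not follow the levels of Xist and of Y-linked genes, both of which were present in every library.

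Other repair genes and genes of proliferation were set beside the members. In a list of further homologous recombination and Fanconi genes, 32 of 61 tested fell and 7 rose, with a median log2 fold change of -0.20. In this list Hus1, a subunit of a checkpoint clamp, was lowest (-0.97) and Sem1, a small partner of Brca2 and of the proteasome, highest (0.63).

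Other repair routes were less uniform. For non-homologous end joining, which seals breaks without a template, 4 of 12 tested genes fell and 2 rose (median -0.10), from the Ku subunit Xrcc6 at -0.58 to Paxx at 0.56. For mismatch and excision repair, 16 of 28 fell and 2 rose (median -0.21), from the damage-binding protein Ddb1 at -0.94 to Xpa at 0.82. The medians of these lists were nearer to 0 than that of the members, and no difference between the lists was tested.

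DNA replication and mitosis genes had medians like that of the members. All 38 replication genes fell (median -0.54), from the polymerase subunit Pole at -1.04 to the helicase subunit Gins4 at -0.13, and Mcm2, another helicase subunit, had -0.73. Of 26 mitosis genes 22 fell and 1 rose (median -0.46), from the checkpoint kinase Bub1 at -0.87 to the centromeric histone Cenpa at 0.15, and the proliferation marker Mki67 had -0.48. In these libraries the summed CPM of the members was 14.2 to 15.8% (median 15.2%) of that of the 38 replication genes in the Control libraries. In the Tardbp libraries it was 15.2 to 16.4% (median 15.7%), so that the ranges overlapped in part. No test was made of this ratio, and the cause of the lower sums was not tested.

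**Figure D4:**
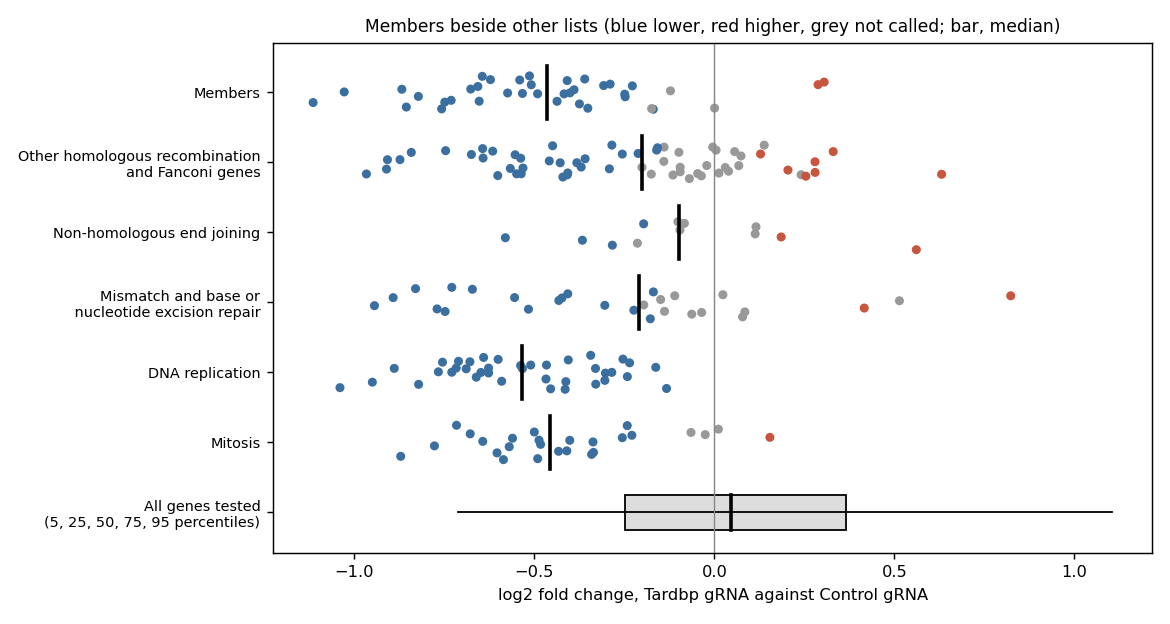
Log2 fold change of each tested gene (points) in the members and 5 other lists, with the median of each list (vertical bar) and the percentiles of all 16650 genes tested (box and line). The members (median -0.46) lie with DNA replication (-0.54) and mitosis (-0.46), and the other repair lists (-0.20, -0.10 and -0.21) lie closer to 0.

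Levels of different genes were compared per length, as transcript levels (TPM, transcripts per 1000000) recomputed from transcript counts and annotated lengths. In Control gRNA they ran from 91.4 ± 7.20 TPM for Rad54l and 86.6 ± 6.39 for Rad51ap1, which did not differ beyond their SD, to 4.90 ± 0.590 for Atm and 4.19 ± 0.367 for Bard1 (n = 8 each). In Tardbp gRNA Rad51ap1 (67.3 ± 4.77) stood above Rad54l (55.1 ± 5.61). Dna2 went from the 7th to the 18th highest level of the 38 and Brca1 from the 26th to the 31st, whereas Mus81 went from the 9th to the 4th and Rad52 from the 29th to the 19th. For Brca2 the TPM varied widely in Control gRNA (11.8 ± 4.59, against 11.1 ± 2.68 in Tardbp gRNA), and its retained-intron transcripts took 3.0 to 41.3% and 8.03 to 38.1% of its count. Atr had 6.54 ± 0.788 TPM in Control gRNA and 6.36 ± 0.992 in Tardbp gRNA (SD, n = 8 each). For neither Atr nor Brca2 was the fall of the gene count seen beyond the SD of the TPM. Across the 38 members the fold change had a Spearman rho of -0.26 with the mean transcript length and of -0.25 with the TPM level in Control gRNA. These are weak relations among genes that share the same libraries.

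At the level of transcripts, 154 member transcripts were tested. Of these 30 fell and 3 rose, 33 in all, where 16.6% of 40897 transcripts were called and 8.14% were called lower. All 30 that fell were among the 73 protein-coding transcripts. All 3 that rose were among the 50 annotated as retaining an intron, and none of the 17 targets of nonsense-mediated decay and 14 processed transcripts was called. Over all transcripts, 12.9% of the protein-coding ones were called lower and 7.08% higher, and of those that retain an intron 1.43% were lower and 10.5% higher. The number of member transcripts that rose was 5 with DESeq2, 2 without the filter and 0 at an adjusted p under 0.01. The main coding transcripts Blm-201 (60.4 ± 5.61 to 27.3 ± 5.02 CPM) and Brca1-201 (59.7 ± 5.12 to 31.7 ± 6.05 CPM; SD, n = 8 each) fell with log2 fold changes of -1.15 and -0.91.

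The higher gene counts of Rad52 and Mus81 were not matched by a called coding transcript. The transcripts that rose were Rad52-214 (0.644 ± 0.207 to 1.07 ± 0.157 CPM, log2 fold change 0.74, adjusted p 0.0140), Mus81-206 (0.491 ± 0.190 to 0.917 ± 0.418 CPM) and Mus81-207 (0.238 ± 0.126 to 0.506 ± 0.179 CPM; SD, n = 8 each), all at low levels. The coding transcripts Rad52-212 (4.04 ± 1.9 and 6.40 ± 2.73 CPM) and Mus81-202 (13.1 ± 3.86 and 14.3 ± 10.1 CPM) had log2 fold changes of 0.66 and 0.13 and missed the threshold (adjusted p 0.232 and 0.861). The spread between libraries of such transcripts was wide. For Dna2, whose gene count fell most, the estimates of the coding transcript Dna2-203 (39.8 ± 18.2 and 29.7 ± 9.72 CPM) and of Dna2-201, annotated as a decay target (40.2 ± 22.5 and 3.89 ± 6.82 CPM), were also too variable to be called (adjusted p 0.362 and 0.150).

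Use of the transcripts of a gene was measured as the share of each transcript in the count of its gene. None of 151 member transcripts in 35 genes passed an adjusted p under 0.05 with a difference over 0.1 (limma), where 0.635% of 32777 transcripts did, and 7 had an adjusted p under 0.05. The 2 lowest adjusted p-values were those of Rad54l. Rad54l-201, the main coding transcript, took a share of 0.907 ± 0.016 with the Control gRNA, against 0.809 ± 0.053 with the Tardbp gRNA (SD, n = 8 each; adjusted p 0.00942), and the processed transcript Rad54l-204 a share of 0.0482 ± 0.0062 and 0.0976 ± 0.0145 (adjusted p 0.000185). Neither overlapped between the groups.

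The splicing table of the authors gives 1 Psi value (the fraction of transcripts that use a node) per group. Its 2 groups carry the letters A and B only, which no label explains, and A was taken as Control gRNA because the study describes 1 Ikzf1 exon as more included after Tardbp targeting. The directions of all Psi values below rest on that assignment. The table held 739 nodes in 37 members, all but Rmi2. Of these, 2 passed a Psi difference over 0.1 at a posterior probability over 0.9, which are thresholds of the study without its further minimum of reads, as the table has no read counts. The same held for 0.473% of all 125520 nodes. Both member nodes are alternative transcription starts of Rad54l. The upstream node, 26 bases at chr4:116123660-116123685 on the minus strand, rose in Psi from 0.0189 to 0.231. The downstream node, 181 bases at chr4:116123479-116123659, went from 0.981 to 0.770. Neither passed at a probability over 0.95, and Psi has no value per library and thus no replicate error. Rad54l-201 starts at the first base of the downstream node (116123659) and the coding transcript Rad54l-202 at that of the upstream node (116123685). Rad54l-202 took a share of 0.0416 ± 0.0108 with the Control gRNA, against 0.0881 ± 0.0406 with the Tardbp gRNA (SD, n = 8 each; adjusted p 0.0928), with overlap. Exons of Rad54l overlap those of Lrrc41 on the opposite strand (40.2% of the count of Rad54l, log2 fold change -0.20). The kit does not keep the strand, so that reads of the 2 genes cannot be told apart where they overlap. The part of Lrrc41 reads in the shares of the Rad54l transcripts, Rad54l-204 included, was not tested. The bases around the upstream node, read on the minus strand of GRCm38.p6 (the assembly that the files call mm10) at chr4:116123640-116123715 from RefSeq promoter windows, are shown with the node in capitals, since the 2 starts are separated by these bases alone.
Rad54l: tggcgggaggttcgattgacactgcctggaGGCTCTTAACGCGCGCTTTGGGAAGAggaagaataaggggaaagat

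Other nodes had wide Psi differences but did not pass the probability threshold. For Top3a the 2 nodes at the transcript end, chr11:60741891-60742233 and chr11:60742234-60742331, had Psi values of 0.878 and 0.119 with the Control gRNA, against 0.517 and 0.485 with the Tardbp gRNA. A core exon of Atm, 127 bases at chr9:53490914-53491040, had 0.925 and 0.790, in a gene whose count did not differ detectably. For Rad51c an end node of 391 bases had 0.671 and 0.534, and for Atr a core exon of 179 bases had 0.952 and 0.834. Nodes of other members differed more than those of Atm, Rad51c and Atr. Among them were start nodes of Fancb (0.113 and 0.320), Palb2 (0.0645 and 0.265) and Fancc (0.307 and 0.495). A node of 3 bases in Rad52 had 0.519 and 0.338. The share of all nodes with such differences was not computed.

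The share of a gene's count in transcripts annotated as retaining an intron was then computed, a measure chosen after the transcript calls had been seen. Of 20 members with such transcripts, 4 rose and none fell (limma, adjusted p under 0.05), where 15.5% of 4727 genes rose, a like share. Atr had 8.35, 9.54 and 12.4% (lowest, median, highest) in Control gRNA and 11.7, 16.8 and 23.3% in Tardbp gRNA. Only the highest Control library reached into the Tardbp range (adjusted p 0.0016). The means were 18.6 ± 2.39% and 25.8 ± 3.41% for Palb2, 4.06 ± 0.931% and 6.72 ± 1.44% for Rbbp8, and 7.06 ± 2.13% and 13.1 ± 4.20% for Dna2 (SD, n = 8 each). With the RNA concentration as a covariate none of the 20 members was called, and only 2 of the 4727 genes rose. The concentration did not overlap between the groups, so this fit cannot separate it from the group.

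**Figure D5:**
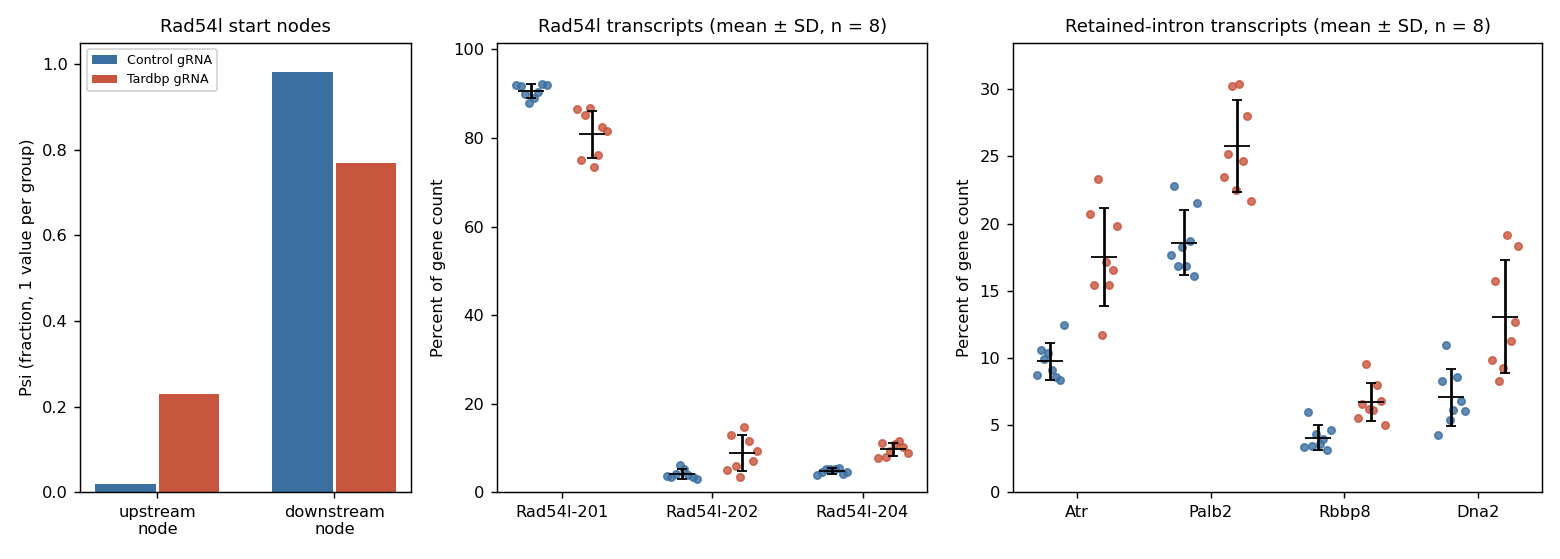
Left, Psi of the 2 Rad54l start nodes, 1 value per group without error, with the lettered groups assigned as described. Middle and right, percent of the gene count in 3 Rad54l transcripts and in the retained-intron transcripts of 4 members, per library (points) with mean and SD (bars, n = 8 per group). Rad54l-201 falls from 90.7 to 80.9% and the retained-intron percentages are higher in Tardbp gRNA.

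The promoters of the members were searched for words bound by cell cycle factors, on both strands of RefSeq windows (GRCm38.p6) from 250 bases before to 50 after each transcription start. Windows were matched for 28 members, 31 windows in all. An E2F word (TTTCCCGC, TTTGGCGC, TTTCGCGC or TTTGCCGC) was in 7 of the 31 windows (22.6%), where 2.26% of all 32851 windows hold one. By gene it was in 6 of 28 members and 5 of 52 further homologous recombination and Fanconi genes. It was in 14 of 30 replication genes and 1 of 22 mitosis genes. The CHR word TTTGAA was in 2 of the 31 windows (6.45%, against 17.9% of all windows), and in 15 of the 22 mitosis genes. CCAAT was in 17 (54.8%, against 37.4%). A word in a window is a description and not a bound site. The shorter E2F words GCGGGAA or GGCGGGA, which overlap the first of the longer ones, were in 18 of the 31 (58.1%, against 13.3%). By gene they were in 17 of 28 members and 24 of 52 further homologous recombination and Fanconi genes. They were in 16 of 30 replication genes and 6 of 22 mitosis genes. The 6 members with a longer E2F word had a median log2 fold change of -0.34 and the 22 without one of -0.47. No longer word was in the windows of Dna2, Blm, Brca1 or Fanci, though that of Fanci holds a shorter one. Fold changes were not split by the shorter words, and a link of words with fold changes was not tested. Top3a and Fancd2 are among the members without a matched window. The windows that hold the longer words are shown over the word (capitals) and up to 21 bases on either side, to show each word in its place. The word is TTTCCCGC, on either strand, in Brca2, Chek2, Hells, Bard1 and the first window of Rad51c, TTTCGCGC in its second window and TTTGGCGC in Rmi1. They lie at chr5:150522432-150522481 for Brca2, chr5:110839810-110839859 for Chek2, chr19:38930907-38930956 for Hells and chr13:58402602-58402646 for Rmi1, all on the plus strand, and at chr1:71103153-71103202 for Bard1 and chr11:87404931-87404980 and chr11:87404467-87404516 for 2 windows of Rad51c, on the minus strand.
Brca2: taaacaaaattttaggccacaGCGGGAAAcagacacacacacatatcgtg
Chek2: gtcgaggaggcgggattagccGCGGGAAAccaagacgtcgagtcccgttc
Hells: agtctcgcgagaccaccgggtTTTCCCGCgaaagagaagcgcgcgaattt
Bard1: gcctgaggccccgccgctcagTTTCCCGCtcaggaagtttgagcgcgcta
Rad51c, first window: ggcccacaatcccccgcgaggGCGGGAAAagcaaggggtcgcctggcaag
Rad51c, second window: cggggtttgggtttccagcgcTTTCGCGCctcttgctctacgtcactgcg
Rmi1: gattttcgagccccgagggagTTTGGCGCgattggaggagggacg

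Exons of 18 members overlap exons of another gene. For 9 of them (Eme1, Fanca, Fancc, Fanci, Fancl, Mre11a, Rad54l, Rmi1 and Xrcc3) that gene lies on the opposite strand and had 10% or more of the count of the member, such as Polg for Fanci (86.0%, log2 fold change -0.33), Zfp276 for Fanca (39.2%, 0.36) and the abundant Hnrnpk for Rmi1 (3318%, -0.25). For Eme1 the overlapping genes were Lrrc59 (481%, -0.55) and Mrpl27 (163%, 0.00). These 9 members all fell (median -0.42). Of the other 29, 24 fell and 2 rose (median -0.49). Mus81, 1 of the 2 that rose, overlaps Efemp2, which had 8.50% of its count and a log2 fold change of 0.50.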

How the data were processed

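RNA of sorted CD8+ T cells was sequenced with SMART-Seq v4 and Nextera XT, which do not keep the strand, as pairs of 100-base reads, all 16 libraries on 1 flow cell. The methods state alignment to mm10 with HISAT2 2.1.0, and the authors deposited StringTie 2.1.0 estimated counts per gene and transcript as whole numbers, without normalization. The authors' Whippet table holds Psi as a fraction for groups lettered A and B. A was taken as Control gRNA from the direction the study states for 1 exon. The same table holds the authors' own comparison, the posterior probability as a fraction, used only as a threshold, and the deposited difference of Psi, a score that was not used. The deposited RNA concentration and letter per library were also read. Both count tables had 10 columns that matched no sample and were not used, and 26248 lines with a bare number and 97 other lines were left out (0.0836 to 0.132% of counts).

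Genes and transcripts were fitted with edgeR 4.0.16 under R 4.3.3 (quasi-likelihood test, TMM, filterByExpr with minimum count 10, total 15 and proportion 0.7), adjusted by Benjamini-Hochberg over all features and called at an adjusted p under 0.05, two-sided. Transcript shares were tested with limma 3.58.1, and DESeq2 1.42.0 was an alternative. TPM, motifs and overlaps were computed in Python 3.11.15 with pandas 2.3.3. No set test was run. In simulated counts for this comparison, log2 changes of 0.4 and 0.8 were recovered for 45 and 96% of 100 genes each (16576 genes tested). Only 200 genes were changed there, at a fixed dispersion, whereas 46.7% of genes were called in the data. These rates therefore do not give the sensitivity of the fit to the data. The members and all lists were chosen with earlier results of these data known. Values per library were given, by rule, for the 4 lowest and 4 highest fold changes, for Brca1, Brca2, Atm, Atr, Fancd2 and Fanca, and for members with a called share or node; other lists are given by their lowest and highest gene and by Mcm2 and Mki67, and 1 further gene of the rule is not reported here. PCR copies were counted, so depth overstates the number of molecules.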

Additional observations from a re-analysis of the deposited data

Results flagged for a closer look

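Of 78 groups of 8 values (the 38 members and Tardbp in each group), 4 had 1 library far from the other 7 by Dixon's criterion, where chance at 1 in 20 gives 3.9. Palb2 had 38 CPM in Control library 3, with the other Control libraries between 29.1 and 32.4. Rad51c had 15.8 CPM in Tardbp library 1 and 8.59 to 11.5 in the others, and Gen1 had 29.7 CPM in the same library and 17.4 to 22.4 in the others. Tardbp had 110.4 CPM in Tardbp library 3, below the other Tardbp libraries at 130 to 147. No explanation was tested.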

How the results depend on the processing

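The count of called members (35) and of called genes in the 5 other lists (124) stayed within 1.5 times under DESeq2, other scalings, no filter, the covariates, the stricter threshold and, added after seeing the data, the division of the library numbers and each library left out. Libraries numbered 1 to 3 alone gave 16 and 68, with fewer libraries. The 33 called member transcripts went to between 22 and 44, and the 3 that rose to between 0 and 5 (1 with the replicate block). Of the Psi nodes, 0 passed a probability over 0.95 and 0 one over 0.99, whereas 2 passed at Psi differences of 0.05 and 0.2. The shorter E2F words were in 18 windows instead of 7. Retained-intron shares, also added after seeing the data, had 0 calls with the RNA concentration and 0 in numbers 1 to 3 alone. Atm, at 0.00, was -0.0012 with RLE factors and -0.0012 with DESeq2, -0.24 with the RNA concentration and -0.18 in numbers 1 to 3 alone, and -0.069 to 0.067 when each library was left out, and Rmi2 was 0.36 with the RNA concentration. The cause was not tested. Same-numbered libraries of the 2 groups correlated between -0.0048 and 0.16, so the numbers were not taken to pair them. With the replicate block 36 members were called, and for transcript shares 1 member transcript. Depth was not varied.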
